A study of Mus musculus with 3 samples.

Results

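The loci of Ezh2, Eed, Suz12 and Jarid2, which encode subunits and a partner of Polycomb repressive complex 2, were examined in the peak lists of 2 Utf1 precipitations from mouse embryonic stem cells. A peak was taken as a member where it lay within 20 kb of the gene body on build mm9, with the bounds of the bodies given to the nearest kb. The 4 loci held 20 of the 152608 peaks listed for biotin-tagged Utf1 and 1 of the 10506 peaks listed for endogenous Utf1. Both libraries came from KH2 cells, an established mouse embryonic stem cell line, cultured in standard serum medium with 15% serum and LIF on irradiated CF1 mouse embryonic fibroblasts as feeders. Biotin-tagged Utf1 was precipitated for the first list and endogenous Utf1 for the second, with whole-cell extract and no antibody as the control group, and each group has 1 library. Streptavidin beads are described for the biotin precipitation, although its label carries the same Utf1 antibody as the endogenous precipitation. The sources used here do not say whether the biotin cells also carried untagged Utf1. How far feeder chromatin entered the libraries was not tested, and peak lists hold no expression markers by which to check the cell type.

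Polycomb repressive complex 2 places methyl groups on a lysine in the tail of histone H3 and keeps developmental genes silent. Ezh2 is its catalytic subunit, Eed binds the methylated histone tail and stimulates Ezh2, and Suz12 holds the complex together. Jarid2, a DNA-binding protein of the jumonji family without demethylase activity, joins the complex in stem cells and helps to bring it to chromatin. Utf1 is a chromatin-bound protein of pluripotent cells that has been described as limiting the loading of this complex at genes with both active and repressive marks. Peaks here concern Utf1 at the genes that encode the complex, and not the complex on chromatin.

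Each of the 4 genes had a biotin peak at its 5′ end, and at Ezh2 it was the only peak of the locus. A peak lay across the given 5′ end of Ezh2, Eed and Suz12, and the peak at Jarid2 began 424 bp inside the gene body. All 4 therefore had a peak within 1 kb, a distance chosen after the peaks were seen, because the bounds are rounded to that size. Of the windows of 2001 bp on the same 4 chromosomes, 19.2% held a biotin peak. Starts of other genes on mm9 were not analysed here, so nothing in this count sets these genes apart from other genes.

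The peak at the 5′ end of Ezh2, chr6:47543746-47546184, was 2439 bp wide with 267 tags (95% Poisson interval 236 to 301) and a listed fold enrichment of 6.66. It had the most tags of the 4, above those of 94.1% of the biotin list. The peak at Eed, chr7:97128160-97130292, was 2133 bp wide with 158 tags (134 to 185), and its fold of 3.25 was the lowest of the 4. It was wider than 87.1% of the list although its fold exceeded that of only 20.1%. The peak at Suz12, chr11:79805530-79806911, was the narrowest, with 1382 bp, 145 tags (122 to 171) and a fold of 5.87. The peak at Jarid2, chr13:44824424-44827117, was the widest, with 2694 bp, 210 tags (183 to 240) and a fold of 6.09. Its summit lay 2.70 kb inside the gene body, whereas the summits at Ezh2, Eed and Suz12 lay 0.50, 0.376 and 0.173 kb inside. The density of tags within these peaks, 74.1 to 109 per kb of peak, was above the list median of 47.0 in each.

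The sequences before the gene starts are shown because a biotin peak lay within 1 kb of each given 5′ end. They differ in their content of CG dinucleotides, the pairs at which DNA can be methylated. They are from RefSeq on build GRCm38.p6, while the peaks are on mm9, so that a base cannot be assigned to a peak. All 4 genes matched the table, which gives 32851 promoters of 27025 genes. The 250 bases before the start are given 5′ to 3′, with each CG in capitals. For Jarid2 the outermost of 2 listed starts is used, and the stretch for Ezh2 is left out, here and in the counts that follow, because 240 of its 250 bases lie inside the annotated span of the gene.
Eed: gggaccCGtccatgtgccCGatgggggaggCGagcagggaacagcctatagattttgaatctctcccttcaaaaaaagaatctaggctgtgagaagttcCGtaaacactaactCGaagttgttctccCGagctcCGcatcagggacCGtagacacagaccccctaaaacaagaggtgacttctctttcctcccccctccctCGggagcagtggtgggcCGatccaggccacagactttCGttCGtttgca
Suz12: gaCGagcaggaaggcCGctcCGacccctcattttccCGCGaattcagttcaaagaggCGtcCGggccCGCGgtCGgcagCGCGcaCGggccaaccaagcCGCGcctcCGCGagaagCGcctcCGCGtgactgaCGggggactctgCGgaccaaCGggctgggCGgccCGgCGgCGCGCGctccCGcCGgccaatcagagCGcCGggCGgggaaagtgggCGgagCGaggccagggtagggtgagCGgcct
Jarid2: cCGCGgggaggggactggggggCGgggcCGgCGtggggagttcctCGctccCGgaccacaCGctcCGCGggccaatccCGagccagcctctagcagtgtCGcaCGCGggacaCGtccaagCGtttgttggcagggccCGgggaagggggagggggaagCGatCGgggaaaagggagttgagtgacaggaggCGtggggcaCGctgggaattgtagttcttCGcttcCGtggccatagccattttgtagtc

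Suz12 had 37 CG pairs in these 250 bases, more than 97.8% of all promoters of the table, whose median was 6. Jarid2 had 23, more than 86.7%, and Eed had 12, more than 66.5%. Eed, with the fewest CG pairs, also had the 5′ peak of lowest fold, while Suz12, with the most, did not have the highest, and no relation can be drawn from 3 genes. The CCAAT box, searched as CCAAT on both strands, occurred 1 time each before Suz12 and Jarid2, and was in 33.8% of all promoters. An E2F site, searched on both strands as TTTCCCGC, TTTGGCGC, TTTCGCGC or TTTGCCGC, each of which holds a CG, was found before Suz12 and in 1.86% of all promoters. Both motifs were chosen with the sequences in view, and a match describes letters and not a bound site.

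**Figure D1:**
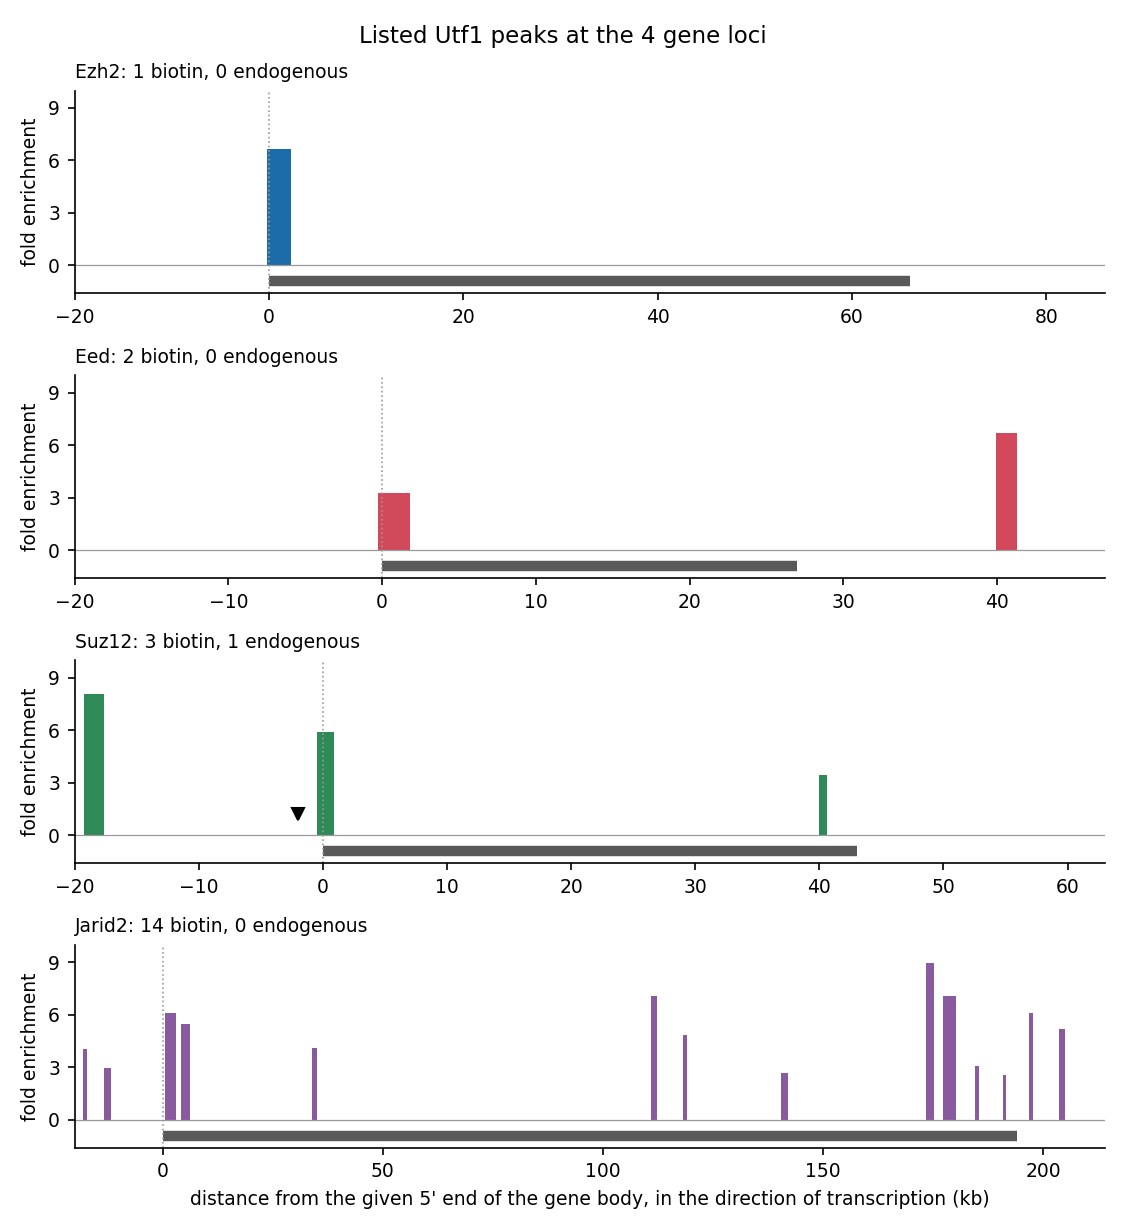
Listed peaks at each locus, drawn to scale along the distance from the given 5′ end in the direction of transcription (kb), with the gene body as a grey bar. Bar height is the listed fold enrichment of a biotin peak and the black triangle marks the endogenous peak. A bar stands at or just inside position 0 in all 4 panels, and Jarid2 alone has many bars along its body.

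Away from the 5′ ends the loci differed. Ezh2 had no other peak: the 83.7 kb from 47460000 to 47543745, which hold nearly the whole gene body and the downstream flank, were without any. The nearest biotin peaks outside were 34.7 kb beyond the 3′ end, toward the neighbouring gene Cul1, and 178.9 kb beyond the 5′ end. At Eed the second peak lay outside the gene, chr7:97088737-97090101, 12.9 kb beyond the 3′ end on the side of the neighbour Hikeshi. It was 1365 bp wide with 115 tags (94.9 to 138) and a fold of 6.72, a higher fold than that of the 5′ peak with fewer tags. The remaining 38.1 kb between both Eed peaks, most of it gene body, held no peak.

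Suz12 had 1 peak in the upstream flank and another near its 3′ end, besides the 5′ peak. The strongest by fold and the widest of the locus, chr11:79786750-79788386, lay in the upstream flank, its summit 18.2 kb before the 5′ end on the side of Utp6. It was 1637 bp wide with 155 tags (132 to 181) and a fold of 8.04. Near the 3′ end a small peak, chr11:79846008-79846590, had 583 bp, 26 tags (17.0 to 38.1) and a fold of 3.46, and it was narrower than all but 1.04% of the biotin list. Between it and the 5′ peak 39.1 kb of the gene held no peak. Gene neighbours were read from the order of genes in RefSeq, and no flanking peak was assigned to a gene.

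Jarid2, the longest of the genes, had 14 biotin peaks, 10 in the gene body and 2 in each flank. A second peak, chr13:44828227-44830105, singled out for its place beside the first, followed the 5′ peak, with 2.76 kb between the summits. It had 156 tags (132 to 182) and a fold of 5.45. The middle of the gene was sparse. A single peak lay at 34.3 kb, and the next 75.9 kb held none, up to a peak at chr13:44935021-44936366 with 84 tags (67.0 to 104) and a fold of 7.07.

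Near the 3′ end of Jarid2 peaks lay close together, with 4 summits in the body between 174.4 and 191.0 kb from the 5′ end. The first of them, chr13:44997386-44999216, had the highest fold of all 20 peaks, 8.96, with 181 tags (156 to 209), and exceeded 92.1% of the biotin list by fold. Beside it chr13:45001204-45004286 was the widest of the 20, with 3083 bp, 188 tags (162 to 217) and a fold of 7.07. The other 2 were small, with 32 and 29 tags and folds of 3.10 and 2.59. Beyond the 3′ end 2 further peaks had folds of 6.10 and 5.17, and there the next gene in RefSeq is Dtnbp1. At Jarid2, as at Eed and Suz12, the highest fold of the locus was therefore not at the 5′ end.

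A peak in the body of Jarid2, singled out after its values were seen, combined many tags with little enrichment. It lay at chr13:44964457-44965942 and had 373 tags (336 to 413) in 1486 bp, 251 per kb of peak, against at most 109 in the other 19 peaks. Its fold of 2.69 was above only 5.39% of the list. It held 23.2% of the 1606 tags listed at Jarid2, of which 1233 remained without it.

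**Figure D2:**
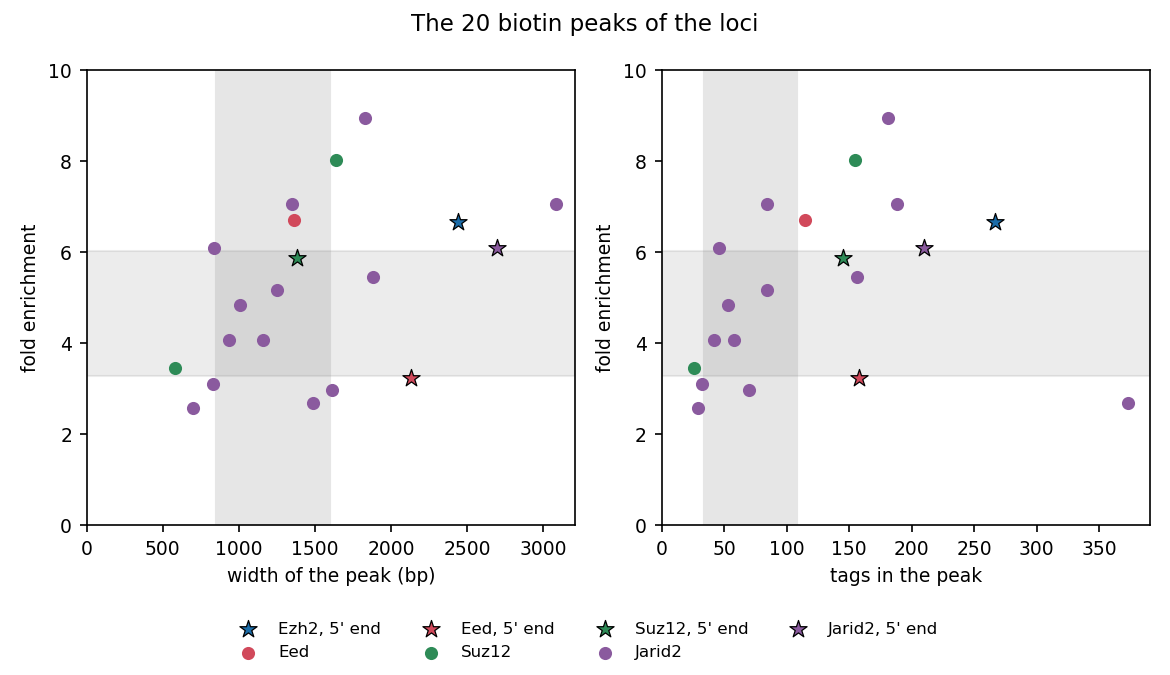
Fold enrichment of the 20 biotin peaks against their width in bp (left) and against their tags (right), with peaks at the 5′ end as stars and the other peaks as circles. Grey bands span the lower to the upper quartile of the whole biotin list. All 4 stars lie to the right of the tag band, and the Jarid2 peak of 373 tags stands apart at the lower right.

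As single peaks, the 4 at the 5′ ends were large for the biotin list, mainly by tags, and the other 16 were close to its shares. Of the 20, 10 had more than 108 tags, the upper quartile of the list, which 24.9% of all biotin peaks exceeded. By width 8 were above 1599 bp, against 25.0% of the list, and by fold 8 were above 6.03, against 24.7%. The 4 peaks at the 5′ ends were above the upper quartile in 4 cases by tags, in 3 by width and in 2 by fold. The other 16, most of them at Jarid2, were above it in 6, 5 and 6 cases. These counts are only slightly above what the shares of the list would give, and do not set the 16 apart. The median of the 20 was 99.5 tags, 1373.5 bp and a fold of 5.31, against 53 tags, 1085 bp and 4.14 in the list. Peaks of a locus share a library and a neighbourhood, so that these counts describe them and were not tested.

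As whole regions Ezh2, Eed and Suz12 were near the middle of their windows in biotin coverage, and Jarid2 was above the upper quartile. Coverage, the share of the gene body with its flanks that lay under biotin peaks, was 2.30% at Ezh2, 5.22% at Eed, 4.34% at Suz12 and 8.83% at Jarid2. Each was set beside windows of the same length laid end to end along its chromosome. On chromosome 6, 40.4% (95% exact interval 37.8 to 43.1) of 1380 windows had lower coverage than Ezh2, and the median was 3.17%. On chromosome 7, 58.0% (55.9 to 60.0) of 2229 windows were below Eed, with a median of 3.74%. On chromosome 11, which is dense in biotin peaks, 40.7% (38.1 to 43.3) of 1428 windows were below Suz12, with a median of 7.21%. Jarid2 exceeded 78.4% (74.5 to 81.9) of 499 windows on chromosome 13, with a median of 3.95%. Ezh2, Eed and Suz12 thus stood within the middle 50% of their windows, between the quartiles, and Jarid2 above the upper quartile of 7.78%. The place of Jarid2 was near that limit: with flanks of 10 kb it exceeded 74.5% of windows, just under the upper quartile.

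**Figure D3:**
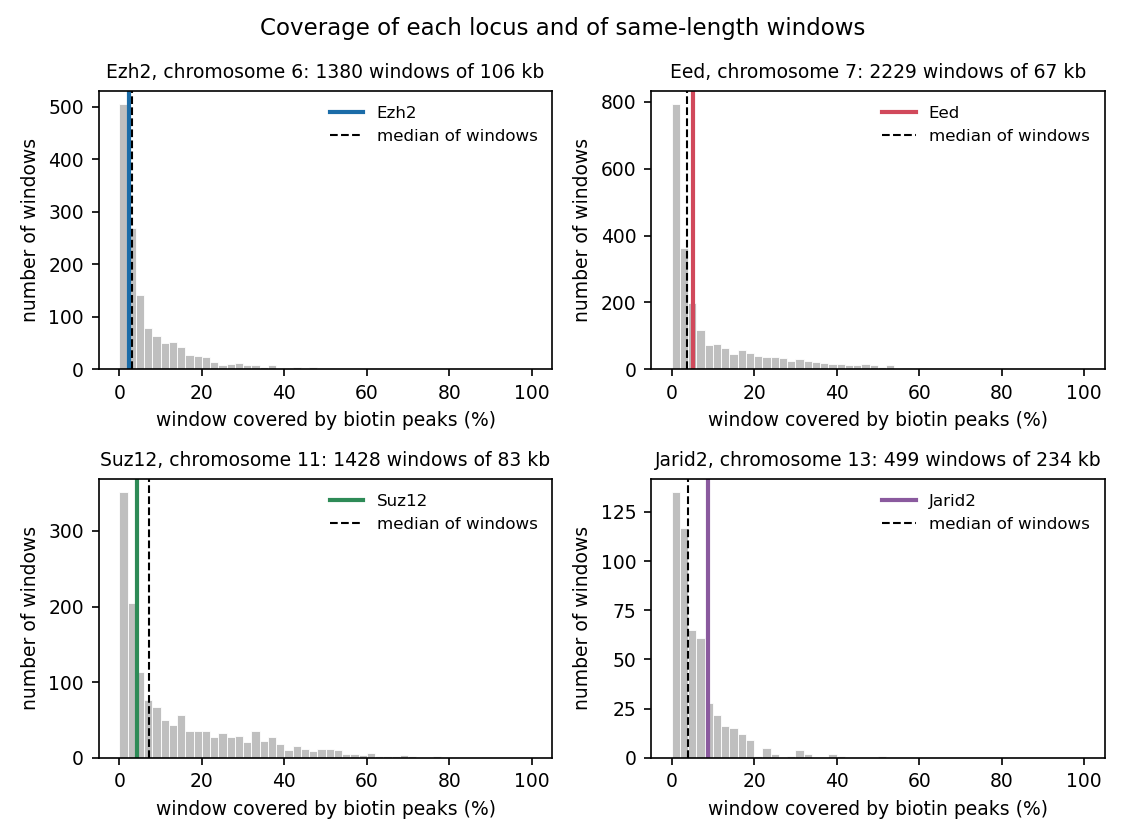
Share of each same-length window covered by biotin peaks (%, horizontal) against the number of windows (vertical), by locus. The coloured line is the locus and the dashed line the median of its windows. Ezh2 and Suz12 lie below the dashed line, at 2.30% and 4.34%, and Eed and Jarid2 above it, at 5.22% and 8.83%.

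Tags gave nearly the same order. The biotin list held 267 tags (236 to 301) at Ezh2 and 273 (242 to 307) at Eed, with intervals that overlap, 326 (292 to 363) at Suz12 and 1606 (1528 to 1687) at Jarid2. Per kb of window these were 2.52, 4.07, 3.93 and 6.86. Fewer tags were listed in 52.8% (50.1 to 55.4) of the windows for Ezh2, 60.1% (58.0 to 62.2) for Eed, 45.7% (43.1 to 48.3) for Suz12 and 82.4% (78.7 to 85.6) for Jarid2. Without its peak of 373 tags, and without the other biotin peaks of at least 200 tags per kb and a fold under 3, Jarid2 exceeded 74.7% of windows. The number of peaks was below the window median at Ezh2, with 1 against 3, and at Suz12, with 3 against 5. Neither was outside the quartiles of its windows, 1 to 8 for Ezh2 and 2 to 14 for Suz12. The number equalled the median of 2 at Eed and was above the median of 8 at Jarid2, with 14.

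With flanks of 20 kb, all 4 loci stood above most windows in median peak width, a measure that was not varied with other flanks. At Suz12 that median depended on the upstream peak of 1637 bp, 17.6 kb outside the gene body, beside widths of 1382 and 583 bp. The median width of the biotin peaks was 2439 bp at Ezh2, 1749 bp at Eed, 1382 bp at Suz12 and 1299.5 bp at Jarid2. Among windows with at least 1 biotin peak, the median width was smaller in 99.0% (98.3 to 99.5) for Ezh2, 93.3% (92.1 to 94.4) for Eed, 78.0% (75.6 to 80.2) for Suz12 and 84.4% (80.9 to 87.5) for Jarid2. The medians at Ezh2, Eed and Suz12 rest on 1, 2 and 3 peaks, and those of windows often on more. A median of few peaks spreads more, so the shares and intervals of these 3 loci may overstate how wide their peaks were. As single peaks, the Ezh2 peak was wider than 90.9% of the biotin list, and the Eed peaks than 66.3% and 87.1%. The Suz12 peaks were wider than 76.2%, 67.0% and 1.04% of it. Within 500 kb to either side of the 5′ end there were 42 biotin peaks at Ezh2, 49 at Eed, 72 at Jarid2 and 117 at Suz12. Suz12 thus had a peak number below its window median in the densest of the 4 neighbourhoods.

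In the endogenous list only Suz12 had a peak. It lay at chr11:79803680-79804263, in the upstream flank, 584 bp wide with a fold of 1.21 and a false discovery rate of 3.05%. Its 13 tags (6.92 to 22.2) are the smallest number in that list, a common value there, as the lower quartile is also 13 and the median 14. It ended 1267 bp before the biotin peak at the Suz12 5′ end, with 2181 bp between the summits, and did not overlap it. Neither it nor any of the 20 biotin peaks overlapped a peak of the other list, against 18.8% of all endogenous and 1.28% of all biotin peaks. A count of 0 of 20 allows a share of up to about 15% by counting error alone, by the approximate rule that 0 counts allow 3.

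Most windows of these lengths had no endogenous peak either, except those of the length of Jarid2. An endogenous peak was in 18.4% of the windows for Suz12, 33.4% for Ezh2, 20.4% for Eed and 51.1% for Jarid2. Outside the loci the nearest endogenous peak was 181.6 kb from the Ezh2 gene body, 262.3 kb from Eed and 339.9 kb from Jarid2. No endogenous peak was listed at Ezh2, Eed and Jarid2. Depth of either library is unknown, so this does not show that endogenous Utf1 was absent there.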

How the data were processed

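The Utf1 precipitations, biotin and endogenous, were each deposited as 1 list of peaks; values of the whole-cell extract were not analysed here. The build mm9, BWA 0.5.7 and R 2.15.2 are named per the submitters' processing notes. For the peak caller and its control the sources used here give nothing. Per the file headers, the deposited lists give for each peak the tag count (not scaled for depth), a score of 10 times the −log10 of its p-value, the fold enrichment as a linear ratio, the false discovery rate in percent, and width and summit in bp. Folds of the 2 lists may not share a scale and were not compared. Tags inside peaks sum to 14128799 and 276084, and total depth is unknown.

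Windows of the length of each locus were laid from the first to the last biotin peak of its chromosome, leaving out the locus. Peaks counted with all their tags where they overlapped by at least 1 bp. Shares of windows carry exact Clopper-Pearson and tags exact Poisson intervals at 95%, and both cover counting error only. The intervals of shares treat windows as independent, although neighbouring windows were often alike, so that they may be too narrow. For tags, PCR copies cannot be told from separate molecules without molecular identifiers. With 1 library per group nothing was tested for significance. The window calculation was tested on simulated data. The 5′ end was taken from the strand in RefSeq. No reference on mm9 was used, so other genes of the complex were not analysed here. Named at each locus were the 3 biotin peaks of largest fold, the widest, the nearest to the 5′ end, and any endogenous peak, and the text names other Jarid2 peaks chosen after their values were seen. Members, lists and settings were chosen with earlier results of these data known. Alternatives were other flanks, stricter lists, other windows and other criteria of sharing. The tools were Python 3.11.15 with scipy 1.17.1, pandas 2.3.3 and numpy 2.4.6, and matplotlib 3.10.9 for figures.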

Additional observations from a re-analysis of the deposited data

How the results depend on the processing

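Of 109 alternative values for 18 results, 64 stayed within the interval of the main value or within 1.5 times the count and 45 moved. The share of windows with lower coverage (Ezh2 40.4%, Eed 58%, Suz12 40.7%, Jarid2 78.4%) moved beyond its interval in these cases. Without flanks it was 52% for Ezh2, 62.8% for Eed and 36.4% for Suz12. With flanks of 10 kb it was 46.7% for Ezh2, 54.3% for Eed and 34% for Suz12. With flanks of 50 kb it was 34.1% for Ezh2, 47.6% for Eed and 44% for Suz12. Among windows with at least 1 biotin peak it was 31.6% for Ezh2, 46.5% for Eed and 33.3% for Suz12. For the stronger 50% of the list by p it was 53.7% for Ezh2, 68.3% for Eed, 48% for Suz12 and 85% for Jarid2. For peaks of at least the median fold it was 52.8% for Ezh2, 48.1% for Eed and 47.1% for Suz12. The share of windows with fewer tags (Ezh2 52.8%, Eed 60.1%, Suz12 45.7%, Jarid2 82.4%) moved beyond its interval in these cases. Without flanks it was 65.8% for Ezh2 and 67.5% for Eed. With flanks of 10 kb it was 58% for Ezh2, 56.3% for Eed and 39.4% for Suz12. With flanks of 50 kb it was 42.2% for Ezh2 and 49.6% for Eed. Among windows with at least 1 biotin peak it was 45.7% for Ezh2, 49.3% for Eed and 38.9% for Suz12. For the stronger 50% of the list by p it was 59.9% for Ezh2, 65.6% for Eed, 50.3% for Suz12 and 86.2% for Jarid2. For peaks of at least the median fold it was 59.4% for Ezh2, 49.3% for Eed, 49.6% for Suz12 and 76.8% for Jarid2. Without tag-dense peaks of low fold, a setting added after seeing the data like the distances to the 5′ end, the share by tags became 74.7% for Jarid2. Ezh2, Eed and Suz12 ran from 31.6 to 68.3% over the coverage settings run, and Jarid2 stood above them in each. The lowest value of Jarid2, 74.5% with flanks of 10 kb, stayed within its interval but fell just under the upper quartile of windows. Biotin peaks at Eed fell to 1 without flanks or with 10 kb. With 50 kb there were 2 at Ezh2, 6 at Suz12 and 23 at Jarid2. The endogenous peak at Suz12 was lost without flanks and in the stronger 50%, leaving 0. The sharing count was 0 under each criterion. A peak crossed the given 5′ end at 3 of the 4 genes. Apart from shorter lists and other window lengths, the cause was not tested. No paired analysis was possible because each group has 1 library, and none could be left out. Unknown depth limits every statement on absent peaks.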

Other observations

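Tag-dense peaks were rare in the biotin list: 112 of 152608 had at least 200 tags per kb, and 15 of these had a fold under 3. The Jarid2 peak at chr13:44964457-44965942, with 251 per kb, was among these 15. Among the 8254 biotin peaks with a fold of up to 2.69 the median was 28 tags, and 10, this one included, had at least 373. Its listed score, 173.75, was close to that of the Jarid2 peak at 45020780, 172.72, which had 46 tags.

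The summit of the Jarid2 5′ peak lay 84.4% of the way from its left to its right end, farther to one side than in the other 19 peaks of the loci, where the summit stood at 26.1 to 76.7%.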
